A study of Arabidopsis thaliana with 9 samples.

Results

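The 10 genes described here encode the small subunit of Rubisco, the activase that keeps Rubisco working, and 3 further enzymes of the Calvin cycle. They were chosen by locus ID from the 27814 rows of a gene count table of Arabidopsis thaliana seedlings, and all 10 passed the filter on low counts that left 21425 genes for testing. They are RBCS1A (AT1G67090), RBCS1B (AT5G38430), RBCS2B (AT5G38420) and RBCS3B (AT5G38410), which encode the small subunit, and RCA (AT2G39730), the gene of Rubisco activase. GAPA1 (AT3G26650), GAPA2 (AT1G12900) and GAPB (AT1G42970) encode chloroplast glyceraldehyde-3-phosphate dehydrogenase, PRK (AT1G32060) phosphoribulokinase and SBPASE (AT3G55800) sedoheptulose-bisphosphatase. In the RefSeq annotation of the assembly TAIR10.1, RBCS1B, RBCS2B and RBCS3B lie close together on the minus strand of chromosome 5 (from 15376988 to 15385320), and RBCS1A on the minus strand of chromosome 1 (25048158 to 25049667). RCA lies on the minus strand of chromosome 2 (16570746 to 16573692), GAPA1 and SBPASE on the plus strand of chromosome 3, and GAPA2, GAPB and PRK on chromosome 1. The table covers 3 genotypes with 3 libraries each. atd14-1 is a mutant of D14, the receptor of the strigolactone hormones. AtCXE15-OE overexpresses AtCXE15, a carboxylesterase, and the series concerns strigolactone breakdown by such an enzyme. Col-0 is the wild type. All groups were untreated whole seedlings kept at 22 °C in long days, with light for 16 h and darkness for 8 h. Their age is given as 8 days in one label and 10 days in another. The promoter behind AtCXE15, the number of independent lines and the number of plants per library are not given in the labels. Nor do they say whether the 3 libraries of a genotype are separate batches of plants. A p-value here therefore reflects library-to-library spread, part of which may be technical.

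Rubisco fixes carbon dioxide onto ribulose bisphosphate in the chloroplast. Its large subunit is encoded in the plastid genome and its small subunit by a nuclear gene family, so that both genomes must supply the enzyme. Rubisco activase removes inhibitory sugar phosphates from its active sites. The GAPA and GAPB subunits form the dehydrogenase that reduces the fixed carbon, while sedoheptulose-bisphosphatase and phosphoribulokinase act in regenerating the acceptor. These transcripts are known to be abundant in green tissue and to rise in light.

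The small subunit copies are alike in coding sequence, the 3 on chromosome 5 most of all. Only coding sequences were compared, so how far the reads of these libraries could be told apart was not measured. The RefSeq coding sequences of RBCS1B, RBCS2B and RBCS3B were 96.7% to 97.3% identical to each other and 89.9% to 90.1% identical to that of RBCS1A. RBCS1B and RBCS3B share an unbroken run of 233 identical bases. Of all 50-base windows of the coding sequence, 51.9% in RBCS1B and 42.5% in RBCS3B recur exactly in another copy, against 3.64% in RBCS1A. In RBCS2B, 189 of 497 windows recur. Bases 373 to 432 of the coding sequence, all exonic and on the minus strand, are the same in the 3 chromosome 5 copies. Capitals mark the 4 positions that differ among the 4 genes.
RBCS1A (chr1:25048576-25048635): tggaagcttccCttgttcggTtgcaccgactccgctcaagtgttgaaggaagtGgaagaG
RBCS1B (chr5:15384464-15384523): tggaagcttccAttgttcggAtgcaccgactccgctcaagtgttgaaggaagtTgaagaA
RBCS2B (chr5:15381317-15381376): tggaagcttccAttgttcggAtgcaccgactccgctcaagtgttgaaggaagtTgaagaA
RBCS3B (chr5:15377615-15377674): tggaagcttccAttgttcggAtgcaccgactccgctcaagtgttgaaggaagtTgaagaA

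Bases 91 to 150 of the coding sequence form the stretch in which the chromosome 5 copies differ most, at 8 positions among those 3 copies and at 11 among all 4. Capitals again mark the positions that differ among the 4 genes.
RBCS1A (chr1:25049100-25049159): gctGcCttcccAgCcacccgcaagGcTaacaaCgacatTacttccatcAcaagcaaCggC
RBCS1B (chr5:15385006-15385065): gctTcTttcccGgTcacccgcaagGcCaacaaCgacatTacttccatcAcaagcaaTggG
RBCS2B (chr5:15381829-15381888): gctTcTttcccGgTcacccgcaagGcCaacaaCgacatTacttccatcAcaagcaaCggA
RBCS3B (chr5:15378157-15378216): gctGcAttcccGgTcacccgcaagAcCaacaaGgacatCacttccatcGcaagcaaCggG

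GAPA1 and GAPA2 were 84.7% identical over the aligned coding sequence, and both were 63% identical to GAPB (63.1% for GAPA1 and 63.0% for GAPA2). None of the 50-base windows of GAPA1, GAPA2 or GAPB recurred in another of the 3 genes. The GAPA and GAPB genes were therefore separable by coding sequence to a degree that the small subunit copies on chromosome 5 were not.

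The 500 bases before each start codon were searched on both strands for motifs known from light-regulated promoters. The I-box (GATAAG) was present in 8 of the 10 genes, all but GAPA2 and SBPASE, and in 23.5% of the 27443 genes with such a window. The G-box (CACGTG) was present in RBCS1A, RBCS2B, RBCS3B, RCA and SBPASE, that is in 5 of 10, and in 9.23% of all windows. The GT1 core (GGTTAA) was found in 3 of 10 and in 24.4% of all windows. The CCA1 site (AAAAATCT) was found in 2 of 10 and in 13.1% of all windows. The evening element (AAAATATCT) was in none of the 10 and in 3.98% of all windows. The TATA core (TATAAA) was in 9 of 10 and in 64.1% of all windows. Adjacent I-boxes of RBCS1B and PRK overlap each other, and the other motifs searched were not contained in one another. These matches describe letters in a window and show no binding. The I-box nearest to the start codon is followed in all 4 small subunit genes by nearly the same bases, shown here on the gene's own (minus) strand with the I-box in capitals.
RBCS1A (chr1:25049462-25049491): gcggttcaagccGATAAGggtctcaacacc
RBCS1B (chr5:15385303-15385332): aaagaaaGATAAGATAAGggtgtcaacacc
RBCS2B (chr5:15382148-15382177): gtggtccaaatcGATAAGggtgtcaacacc
RBCS3B (chr5:15378477-15378506): gtggtgcgtaccGATAAGggtgtcaacacc

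The 150 bases before the annotated transcript start of RBCS2B hold 3 I-boxes, 1 of them on the other strand, and 1 G-box between them, again in capitals.
RBCS2B (chr5:15382072-15382221, minus strand): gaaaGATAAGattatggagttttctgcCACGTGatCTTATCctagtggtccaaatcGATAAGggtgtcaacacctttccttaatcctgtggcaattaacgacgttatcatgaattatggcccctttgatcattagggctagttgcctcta

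In the same 150 bases RCA held 1 I-box and no G-box, and the other genes held neither. Before the start codon of RBCS3B the same 4 matches lay in the same order, with the G-box at 217 bases, against 216 bases in RBCS2B. The I-box nearest to the start codon lies inside the annotated gene, and not upstream of it, in RBCS3B, RBCS1A, RBCS1B, GAPA1, GAPB and PRK. In RBCS1B it lies at the very edge of the gene. RBCS1A carried a G-box at 259 bases, between I-boxes at 283 and 230 bases. RBCS1B carried I-boxes at 170 and 165 bases and no G-box.

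**Figure D1:**
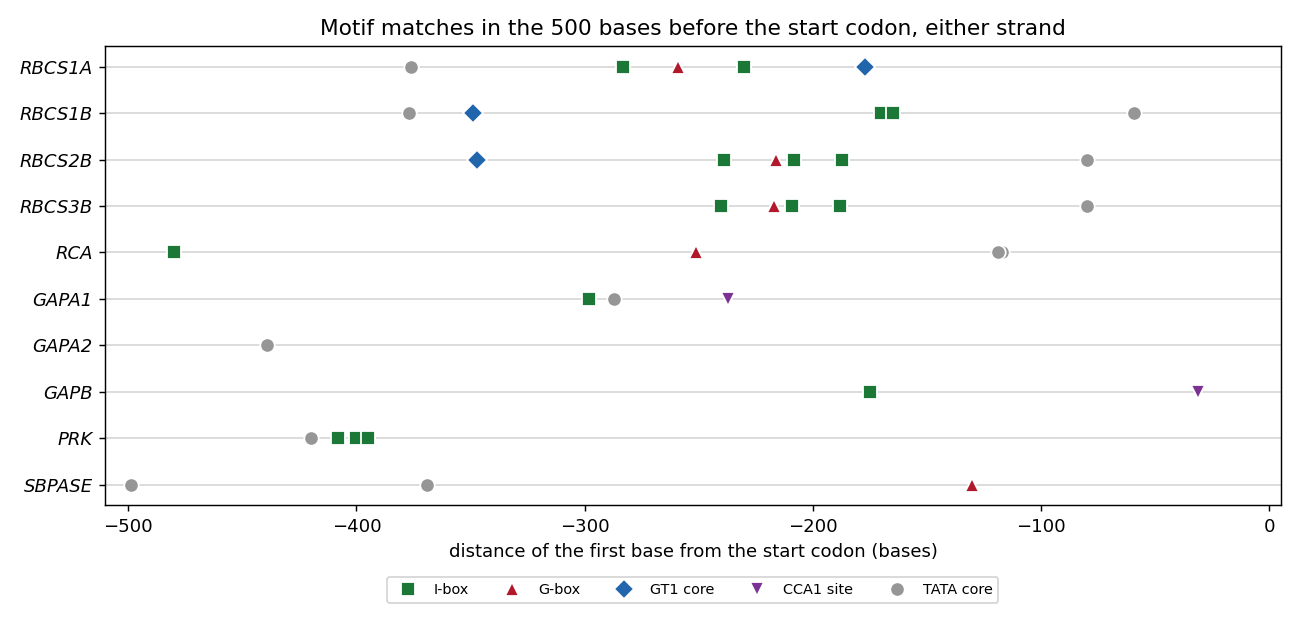
Matches to 5 motifs in the 500 bases before the start codon of each gene, on either strand; the horizontal axis is the distance of the first base from the start codon. RBCS2B and RBCS3B share an arrangement of I-boxes around a G-box, while GAPA2 holds neither motif.

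Each library held 37724263 to 54421069 counts, of which the 10 genes took 1.83% to 2.28%. Values are TMM-scaled CPM, which divides a count by the size of its library after correction for composition. An error after ± is the SD over the 3 libraries of a group unless called SE. The genotypes were checked on the targeted genes. D14 averaged 6.74 CPM in atd14-1, 44.5 CPM in AtCXE15-OE and 45.0 CPM in Col-0. The locus AT5G06570, taken here to be CXE15 although the annotation gives it no symbol, averaged 3.04 CPM in atd14-1, 822 CPM in AtCXE15-OE and 3.94 CPM in Col-0.

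In 4 libraries, single small subunit loci departed from their level in the other libraries by more than 1.5-fold. As plain CPM of the library total, RBCS2B had 82.7 in Col-0 replicate 3 and a median of 1223 in the other 8 libraries, while RBCS1B had 3035 in that library and a median of 1803 in the others. RBCS1A had 1596 CPM in AtCXE15-OE replicate 2 against a median of 4234 in the others. PG2, a polygalacturonase gene whose span in the table begins inside RBCS1A, had 5942 CPM in that same library against 203 in the others. RBCS1A was high in atd14-1 replicate 1 (7291 CPM, median of the others 4132), and RBCS3B was low in atd14-1 replicate 3 (1742 CPM, median of the others 3373), as was RBCS2B there (724 CPM). In these 2 atd14-1 libraries no other small subunit locus or PG2 departed in the opposite direction by as much. The table gives RBCS1A a span of 4.489 Mb, RBCS3B 4.181 Mb, RBCS1B 2.842 Mb and RCA 1.238 Mb, where the annotated genes are 1510, 1655, 2154 and 2947 bases long. These spans overlap 1181, 1083, 748 and 343 other loci. The table's spans of the 6 other genes follow the annotation. The copies are therefore also given as a sum, and the main results are also given without the 4 libraries, a choice made after seeing the data that leaves 1 atd14-1 library (replicate 2), 2 AtCXE15-OE libraries and 2 Col-0 libraries.

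**Figure D2:**
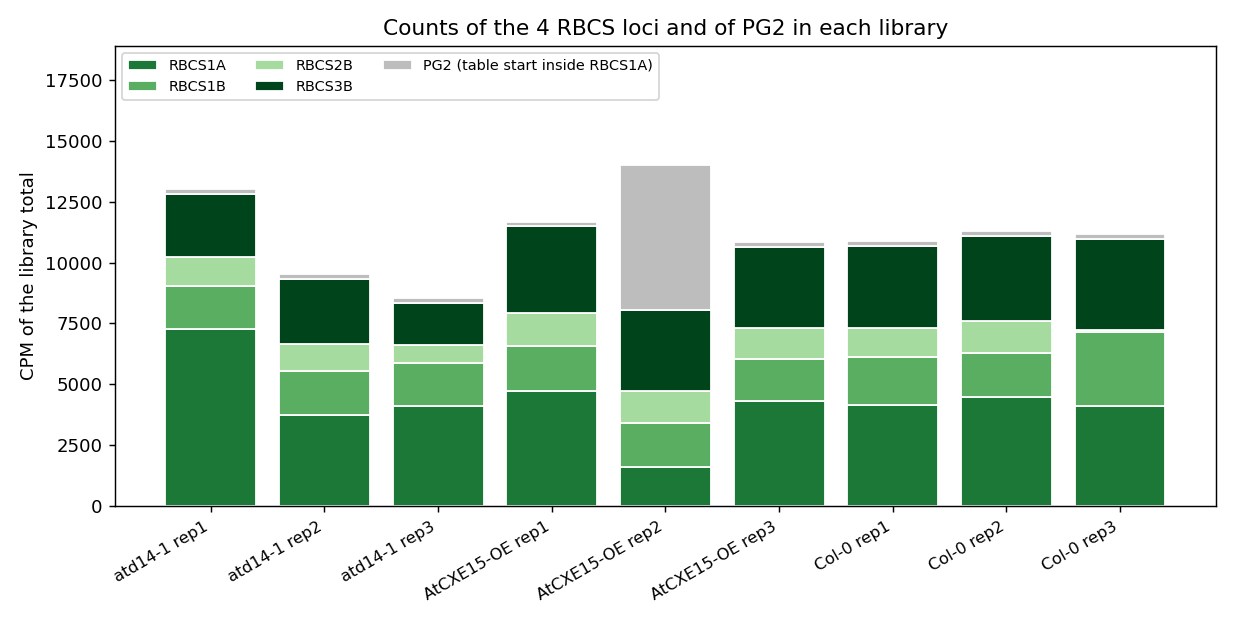
Counts of the 4 small subunit loci and of PG2 in each of the 9 libraries, stacked, in CPM of the library total. RBCS2B is nearly missing in Col-0 replicate 3 (82.7 CPM), and RBCS1A is small in AtCXE15-OE replicate 2 (1596 CPM), where PG2 reaches 5942 CPM.

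Among the 10 genes, levels per kilobase of annotated transcript differed by over an order of magnitude. In Col-0, RBCS1A stood at 3415 ± 167 CPM per kb, RCA at 3243 ± 178, RBCS3B at 2997 ± 189, and RBCS1B at 2777 ± 825. Each of these overlapped the next in its range over the 3 libraries. Their order depends on the length used. The table's own lengths are 4335 bases for RBCS1A, 2418 for RBCS1B and 2151 for RBCS3B. The annotated transcripts used here have 1268, 840 and 1210 bases. For RCA the 2 lengths are close (2006 and 1977 bases), so the table's lengths would put these 3 small subunit genes lower beside RCA. RBCS2B followed at 947 ± 746 CPM per kb, its spread set by Col-0 replicate 3. GAPB (736 ± 28.2 CPM per kb) and GAPA1 (726 ± 56.0 CPM per kb) overlapped each other. PRK at 625 ± 8.76, GAPA2 at 457 (range 362 to 562) and SBPASE at 315 ± 14.7 CPM per kb each lay below the gene before with no overlap. In atd14-1 the lowest level was again that of SBPASE, at 287 ± 11.3 CPM per kb, and in AtCXE15-OE at 308 ± 9.12 CPM per kb.

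In atd14-1, 4 of the 10 genes were lower than in Col-0 at an adjusted p under 0.05 and none was higher. Over all genes tested, 6.87% were called lower, 5.06% higher and 11.9% in either direction. Scaled by library size alone, all genes split into 2241 higher and 968 lower, against 1084 higher and 1472 lower with TMM, and RCA, GAPB and RBCS3B kept their calls. The 4 were RCA, GAPB, PRK and RBCS3B. In 6 of the 10 (these 4 with RBCS1B and SBPASE), every atd14-1 library lay below every Col-0 library, a pattern that 15.8% of all genes showed. The log2 fold change was below 0 in 8 of 10, with a median of -0.22 against 0.01 over all genes. In whole seedlings, fewer cells of a type and less RNA per cell cannot be told apart.

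RCA, the activase, had 4713, 4620 and 5139 CPM in atd14-1, against 6048, 6433 and 6752 CPM in Col-0. The groups did not overlap, and RCA fell by 24.8% (log2 fold change -0.41 ± 0.06 SE, edgeR adjusted p = 0.000209). The call held when each of the 6 libraries was left out in turn (highest edgeR adjusted p = 0.00255). Without the 4 libraries in which small subunit loci departed, the log2 fold change was -0.43 (edgeR adjusted p = 0.0918, with 1 atd14-1 library assumed to vary like the other groups).

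GAPB, the subunit of the dehydrogenase that carries its redox-regulated tail, had 1151, 1114 and 1172 CPM in atd14-1, against 1305, 1392 and 1399 CPM in Col-0. It fell by 16.1% with no overlap (log2 fold change -0.25 ± 0.05 SE, edgeR adjusted p = 0.00423). This call also held with each library left out in turn (highest edgeR adjusted p = 0.0321), and the log2 fold change was -0.27 without the 4 libraries (edgeR adjusted p = 0.31).

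PRK, which makes the acceptor of carbon dioxide, had 1010, 1014 and 1077 CPM in atd14-1, against 1182, 1163 and 1196 CPM in Col-0. The groups did not overlap and PRK fell by 12.5% (log2 fold change -0.19 ± 0.05 SE, edgeR adjusted p = 0.023). This is a narrow call. It was kept in 1 of the 6 fits that leave out a library, that without atd14-1 replicate 3. Leaving out atd14-1 replicate 1 or 2 lost it (edgeR adjusted p = 0.0992 and 0.103), and so did leaving out Col-0 replicate 1, 2 or 3 (edgeR adjusted p = 0.0716, 0.059 and 0.0736).

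RBCS3B had 2522, 2565 and 1702 CPM in atd14-1, against 3432, 3569 and 3878 CPM in Col-0. All atd14-1 libraries were lower, replicate 3 most of all. RBCS3B fell by 37.6% (log2 fold change -0.68 ± 0.15 SE, edgeR adjusted p = 0.0299). The call was kept with atd14-1 replicate 1, 2 or 3 left out (edgeR adjusted p = 0.0396, 0.0279 and 0.000571). Without replicate 3 the log2 fold change was -0.51. Leaving out Col-0 replicate 1, 2 or 3 lost the call (edgeR adjusted p = 0.0619, 0.071 and 0.0975), as did a fit of only the 6 libraries compared (edgeR adjusted p = 0.11). The fit lacking the 4 libraries gave -0.45 (edgeR adjusted p = 0.0878). Of the 50-base windows of the RBCS3B coding sequence, 42.5% recur in another copy. The untranslated parts were not compared, and whether reads moved between copies was not tested. The sum of the copies gave no call.

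That sum was 12470, 8941 and 8158 CPM in atd14-1, against 10840, 11370 and 11310 CPM in Col-0. The atd14-1 libraries lay on both sides of the Col-0 libraries, with a log2 fold change of -0.18 ± 0.20 SE (edgeR adjusted p = 0.661). Adding the 3 loci whose table spans begin or end inside a small subunit gene gave -0.17 (edgeR adjusted p = 0.613). RBCS3B was thus called lower as a locus, and the small subunit sum was not called.

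The other 6 genes did not pass the test in atd14-1. RBCS1B had 1684, 1724 and 1716 CPM in atd14-1, against 2013, 1858 and 3127 CPM in Col-0 (log2 fold change -0.45 ± 0.19 SE, edgeR adjusted p = 0.215). This value was -0.18 with Col-0 replicate 3 left out and -0.165 without the 4 libraries. RBCS1A had 7104, 3604 and 4033 CPM in atd14-1, against 4196, 4574 and 4222 CPM in Col-0 (log2 fold change 0.18 ± 0.46 SE, edgeR adjusted p = 0.873). RBCS2B had 1160, 1049 and 707 CPM in atd14-1, against 1204, 1365 and 85.2 CPM in Col-0 (log2 fold change 0.13 ± 0.87 SE, edgeR adjusted p = 0.958). Both positive values turned negative when a single library was left out. The log2 fold change of RBCS1A was -0.18 without atd14-1 replicate 1, and that of RBCS2B was -0.40 with Col-0 replicate 3 left out, or -0.01 with atd14-1 replicate 1 left out. The fit lacking the 4 libraries gave -0.28 for RBCS1A and -0.29 for RBCS2B.

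GAPA1, a catalytic subunit of the dehydrogenase, had 1083, 1151 and 1178 CPM in atd14-1, against 1174, 1269 and 1371 CPM in Col-0 (log2 fold change -0.16 ± 0.06 SE, edgeR adjusted p = 0.134). Its paralog GAPA2 had 539.9, 453 and 643 CPM in atd14-1, against 673, 543 and 843 CPM in Col-0 (log2 fold change -0.33 ± 0.23 SE, edgeR adjusted p = 0.472). SBPASE had 487, 494 and 524 CPM in atd14-1, against 531, 539 and 579 CPM in Col-0 (log2 fold change -0.13 ± 0.05 SE, edgeR adjusted p = 0.148). SBPASE was lower in every atd14-1 library, while both GAPA genes overlapped between the groups. A sum of the 2 GAPA genes gave -0.22 ± 0.09 SE (edgeR adjusted p = 0.18).

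**Figure D3:**
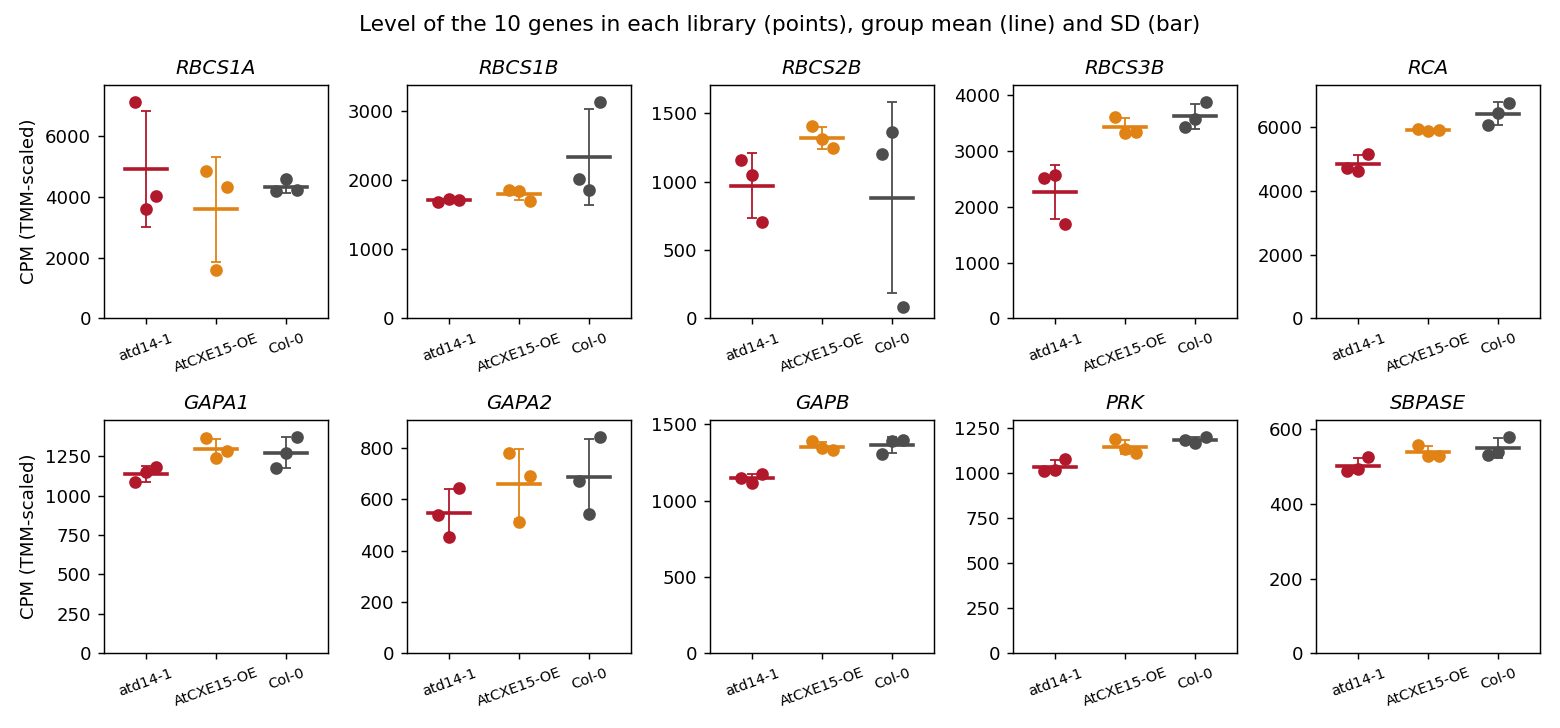
TMM-scaled CPM of the 10 genes in each library (points) with the group mean (line) and SD (bar), for atd14-1, AtCXE15-OE and Col-0 from left to right; each vertical axis starts at 0. RCA, GAPB and PRK are low in all 3 atd14-1 libraries, while the small subunit genes have single libraries far from their group, such as 85.2 CPM for RBCS2B in Col-0.

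In AtCXE15-OE none of the 10 genes was called against Col-0 by edgeR, DESeq2 or limma-voom, where 2.27% of all genes were called by edgeR (1.51% lower and 0.761% higher). The smallest unadjusted edgeR p of the 10 was that of RCA, at 0.0464, a value not corrected for the 10 genes looked at. RCA had 5935, 5855 and 5901 CPM in AtCXE15-OE, against 6048, 6433 and 6752 CPM in Col-0. Its AtCXE15-OE libraries lay below all Col-0 libraries, by a log2 fold change of -0.12 ± 0.06 SE (edgeR adjusted p = 0.377). RCA was the 1 gene of 10 with no overlap, and 8.93% of all genes were lower without overlap in this comparison. The median log2 fold change of the 10 genes was -0.05, against 0.00384 over all genes.

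For the other members the AtCXE15-OE and Col-0 libraries overlapped. GAPB had 1390, 1344 and 1330 CPM in AtCXE15-OE, against 1305, 1392 and 1399 CPM in Col-0 (log2 fold change -0.01 ± 0.05 SE). PRK had 1185, 1130 and 1111 CPM in AtCXE15-OE, against 1182, 1163 and 1196 CPM in Col-0 (log2 fold change -0.05 ± 0.05 SE). RBCS3B had 3621, 3331 and 3347 CPM in AtCXE15-OE, against 3432, 3569 and 3878 CPM in Col-0 (log2 fold change -0.08 ± 0.15 SE). Their log2 fold changes were thus within 1 SE of 0. GAPA1 averaged 1294 ± 66.3 CPM in AtCXE15-OE and 1271 ± 98.1 CPM in Col-0, and SBPASE averaged 538 ± 15.9 CPM in AtCXE15-OE and 549.6 ± 25.7 CPM in Col-0. GAPA2 had 779, 512 and 692 CPM in AtCXE15-OE, against 673, 543 and 843 CPM in Col-0. Of the small subunit loci, RBCS1A had 4837, 1603 and 4312 CPM in AtCXE15-OE, against 4196, 4574 and 4222 CPM in Col-0 (log2 fold change -0.27 ± 0.46 SE). RBCS1B had 1864, 1842 and 1698 CPM in AtCXE15-OE, against 2013, 1858 and 3127 CPM in Col-0 (-0.37 ± 0.19 SE). RBCS2B had 1408, 1313 and 1249 CPM in AtCXE15-OE, against 1204, 1365 and 85.2 CPM in Col-0 (0.58 ± 0.87 SE). AtCXE15-OE replicate 2 was low for RBCS1A and Col-0 replicate 3 for RBCS2B, and the groups overlapped for all 3 loci. With AtCXE15-OE replicate 2 left out the log2 fold change of RBCS1A was 0.08, and with Col-0 replicate 3 left out it was -0.10 for RBCS1B and 0.04 for RBCS2B. The small subunit sum was 11730, 8088 and 10610 CPM in AtCXE15-OE, against 10840, 11370 and 11310 CPM in Col-0. Its log2 fold change was -0.14 ± 0.20 SE (edgeR adjusted p = 0.856), and 0.10 with the 3 edge loci added (edgeR adjusted p = 0.874), PG2 being 1 of these.

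The atd14-1 and AtCXE15-OE lines were set against the same Col-0 libraries, so their difference was tested directly. RCA and GAPB were lower in atd14-1 than in AtCXE15-OE, 2 of 10, where 4.12% of all genes were called lower, 2.82% higher and 6.94% in either direction. RCA had 4713, 4620 and 5139 CPM in atd14-1, against 5935, 5855 and 5901 CPM in AtCXE15-OE (log2 fold change -0.29 ± 0.06 SE, edgeR adjusted p = 0.00625). GAPB had 1151, 1114 and 1172 CPM in atd14-1, against 1390, 1344 and 1330 CPM in AtCXE15-OE (log2 fold change -0.24 ± 0.05 SE, edgeR adjusted p = 0.0105). RCA was called in all 6 fits that leave out a library, and GAPB in 5 of them, with an edgeR adjusted p of 0.0645 when atd14-1 replicate 2 was left out. RBCS3B, at -0.60 ± 0.15 SE, and PRK, at -0.14 ± 0.05 SE, were not called (edgeR adjusted p = 0.0663 and 0.112). Every atd14-1 library lay below every AtCXE15-OE library in 7 of the 10 genes, against 13.7% of all genes. No member was called in any comparison once the 4 libraries were left out. In that fit all 10 log2 fold changes of atd14-1 were below 0, against AtCXE15-OE and against Col-0. The median over all genes was -0.000163 and 0.00269 in these comparisons. Both rest on the same 1 atd14-1 library, replicate 2, so the 10 signs are values of 1 library. The libraries left out were also chosen on the small subunit counts themselves.

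**Figure D4:**
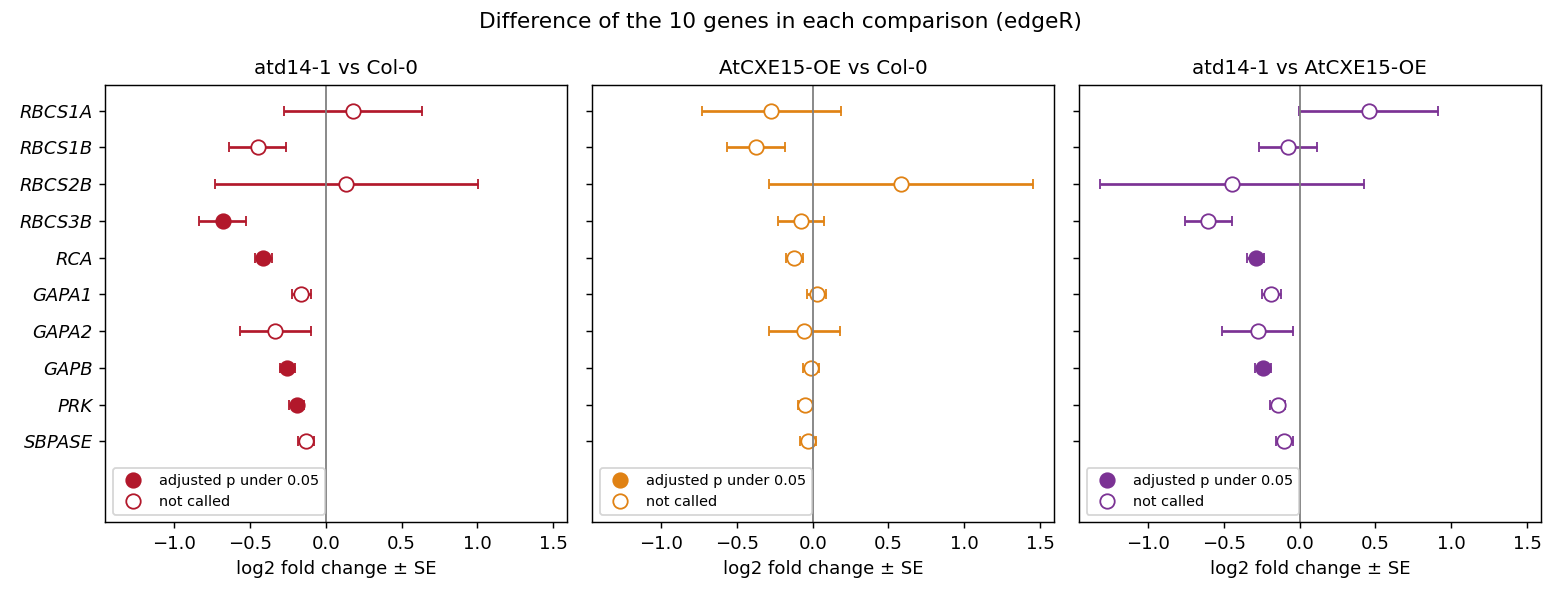
Log2 fold change with its approximate SE for the 10 genes in the 3 comparisons; filled points have an edgeR adjusted p under 0.05. RCA (-0.41) and GAPB (-0.25) are filled for atd14-1 against Col-0 and again against AtCXE15-OE, and no point is filled for AtCXE15-OE against Col-0.

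The make-up of each family by copy was also compared. RBCS1A took 57.0%, 40.3% and 49.4% of the small subunit counts in atd14-1, 41.2%, 19.8% and 40.7% in AtCXE15-OE, and 38.7%, 40.2% and 37.3% in Col-0. The atd14-1 libraries lay above those of Col-0 by 10.2 percentage points on average, with an exact 2-sided permutation p of 0.1, the smallest that 3 against 3 libraries can give. The nearest libraries stood at 40.3% in atd14-1 and 40.2% in Col-0. The difference was 6.12 percentage points with atd14-1 replicate 1 left out, and 9.38 with counts scaled by length (exact permutation p = 0.2). Without the 4 libraries the share was 40.3% in the atd14-1 library, 41.2% and 40.7% in AtCXE15-OE, and 38.7% and 40.2% in Col-0. The low value of 19.8% belongs to AtCXE15-OE replicate 2, in which PG2 was high. GAPA2 took 32.3% ± 3.63 of the GAPA counts in atd14-1, 33.6% ± 3.75 in AtCXE15-OE and 34.8% ± 4.29 in Col-0. GAPB took 40.5% ± 1.22 of the GAPA and GAPB counts in atd14-1, 41.0% ± 2.19 in AtCXE15-OE and 41.2% ± 2.36 in Col-0. Both shares differed between groups by less than the spread between libraries.

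The large subunit gene RBCL (ATCG00490) is encoded in the plastid. Polyadenylated RNA was selected for these libraries, which most plastid transcripts escape, and RBCL had 8.83, 7.78 and 8.18 CPM in atd14-1, 10.4, 10.7 and 11.9 CPM in AtCXE15-OE, and 9.19, 9.91 and 13.3 CPM in Col-0. The atd14-1 libraries were the lowest, with a log2 fold change of -0.39 against Col-0 that was not called (edgeR adjusted p = 0.0854). With 1 library left out it ranged from -0.49 to -0.21, and it was called without Col-0 replicate 1 (edgeR adjusted p = 0.0464).

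Around the 10 genes, the rest of the cycle was examined by lists. Of 14 other Calvin cycle enzymes and CP12 proteins, 5 were lower and 2 higher in atd14-1 than in Col-0, with a median log2 fold change of -0.17. The plastid aldolase FBA2 averaged 2043 CPM in atd14-1 and 2470 CPM in Col-0 (log2 fold change -0.27, edgeR adjusted p = 0.00288). The epimerase gene RPE (log2 fold change -0.26, edgeR adjusted p = 0.00654) and CP12-1, which binds PRK and the dehydrogenase in an inactive complex (log2 fold change -0.27, edgeR adjusted p = 0.0131), fell as well. The aldolase FBA3 rose (log2 fold change 0.26, edgeR adjusted p = 0.0227). The call of CP12-1 was lost under 5 of 18 alternatives, leaving out atd14-1 replicate 1 or 2 or Col-0 replicate 3 among them. That of FBA3 was lost under 5 of 17, leaving out atd14-1 replicate 1 or 3 or Col-0 replicate 2 or 3 among them (edgeR adjusted p up to 0.247 and 0.62). The 6 cytosolic and other glycolytic relatives of the dehydrogenase and of phosphoglycerate kinase had no call in either direction, a median log2 fold change of 0.07 and 2 with an unadjusted p under 0.05.

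Of 18 photorespiration genes, which recycle the product of Rubisco's oxygenase reaction, 10 were lower in atd14-1 and none higher (median log2 fold change -0.25). GGT1, a glyoxylate aminotransferase, averaged 1300.0 CPM in atd14-1 and 1778 CPM in Col-0 (log2 fold change -0.45, edgeR adjusted p = 6.09e-05). The peroxisomal catalase CAT2 (-0.41), the plastid glutamine synthetase GLN2 (-0.36) and AT1G80380, a listed locus without a symbol in the annotation (-0.37), also fell on the log2 scale, with edgeR adjusted p of 0.000252, 0.000386 and 0.000145. Of 9 genes of the chloroplast thioredoxin system, which switches GAPB, PRK and SBPASE on in light, 4 were lower and none higher. TRXF2, an f-type thioredoxin, averaged 47.1 CPM in atd14-1 and 69.9 CPM in Col-0 (log2 fold change -0.57, edgeR adjusted p = 5.97e-06). TRXM4 (-0.22), NTRC (-0.20) and AT2G04700, the catalytic chain of ferredoxin-thioredoxin reductase in the annotation (-0.21), fell with edgeR adjusted p of 0.0085, 0.0249 and 0.0494. The call of NTRC was lost under 6 of 17 alternatives and that of AT2G04700 under 11 of 18, with edgeR adjusted p up to 0.169 and 0.705. Leaving out atd14-1 replicate 2 or 3 or Col-0 replicate 1 or 2 lost the call of NTRC, and leaving out any library but Col-0 replicate 2 lost that of AT2G04700.

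Of 7 genes for Rubisco assembly and maintenance, 2 were lower and none higher, with a median log2 fold change of 0.03. These were RBCX2, an assembly chaperone (log2 fold change -0.31, edgeR adjusted p = 0.0026), and AT5G22620, annotated as a phosphoglycerate mutase family protein (log2 fold change -0.38, edgeR adjusted p = 0.0251). The call of AT5G22620 was lost under 7 of 18 alternatives, leaving out atd14-1 replicate 1 or 2 or Col-0 replicate 2 or 3 among them (edgeR adjusted p up to 0.523). RBCX1 (log2 fold change 0.23, edgeR adjusted p = 0.116) and AT3G04550, annotated as Rubisco accumulation factor-like (log2 fold change 0.19, edgeR adjusted p = 0.0787), were not called. Of 3 genes for carbon dioxide supply and triose export, the carbonic anhydrases CA2 (log2 fold change -0.55, edgeR adjusted p = 2.06e-05) and CA1 (log2 fold change -0.29, edgeR adjusted p = 0.00728) fell, and the triose phosphate translocator TPT, at -0.30, was not called (edgeR adjusted p = 0.329).

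Of 9 transcription factors of chloroplast and light-regulated genes, 5 were lower in atd14-1 and none higher. GLK2, which activates genes of the photosynthetic apparatus, averaged 135 CPM in atd14-1, 162 CPM in AtCXE15-OE and 193 CPM in Col-0. It was called in both lines (log2 fold change -0.52 in atd14-1 and -0.25 in AtCXE15-OE, edgeR adjusted p = 4.14e-06 and 0.00754). The GATA factors GNL (log2 fold change -0.83) and GNC (-0.33), and HYH (-0.57), a relative of HY5, also fell in atd14-1, with edgeR adjusted p of 0.00341, 0.00352 and 0.00509. Of 18 light-harvesting protein genes, 14 were lower in atd14-1 and none higher (median log2 fold change -0.62). LHCB1.4 had a log2 fold change of -1.03, LHCB2.3 -0.86, LHCB2.1 -0.83 and LHCA4 -0.61, with edgeR adjusted p of 8.01e-08, 5.82e-07, 8.16e-06 and 3.0e-06. Several of these genes are near-identical copies. In AtCXE15-OE, GLK2 and LHCB2.3 (log2 fold change -0.25, edgeR adjusted p = 0.0328) were the called genes of both lists, and no gene of the other pathway lists was called. The call of LHCB2.3 in AtCXE15-OE was lost under 7 of 18 alternatives (edgeR adjusted p up to 0.536), among them 5 of the 6 fits that leave out a library, all but that without AtCXE15-OE replicate 1.

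Light-harvesting transcripts and root markers were also set beside the 10 genes by library. The light-harvesting sum was 32930 to 38790 CPM in atd14-1, 44530 to 49980 CPM in AtCXE15-OE and 53230 to 57810 CPM in Col-0, in the same order of groups as RCA. Of 14 root markers, HKT1 rose in atd14-1 (log2 fold change 0.49, edgeR adjusted p = 0.0372). Each of the 6 fits that leave out a library lost this. Of the 14, 12 had a log2 fold change above 0, and none was at 0 counts in a library. PYK10 (-0.14), PRP3 (0.15) and PER64 (0.23) were not called (edgeR adjusted p = 0.225, 0.291 and 0.307). The root marker sum was 4404 to 4777 CPM in atd14-1, 3986 to 4768 CPM in AtCXE15-OE and 4870 to 5148 CPM in Col-0, most of it PYK10. Without PYK10 it was 215 to 251 CPM in atd14-1, 176 to 196 CPM in AtCXE15-OE and 190 to 234 CPM in Col-0. The part of tissue composition in the lower RCA, GAPB and PRK counts was not tested. Without the 4 libraries in which small subunit loci departed, calls lower in atd14-1 were 8 of 18 for light-harvesting genes, 2 of 9 for the thioredoxin system, 1 of 9 for transcription factors, 1 of 3 for carbon dioxide supply and triose export, and 0 for the other pathway lists. No root marker was called in that fit, in which 7 of 14 were below 0 (median log2 fold change -0.00776, against 0.16 with all libraries).

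**Figure D5:**
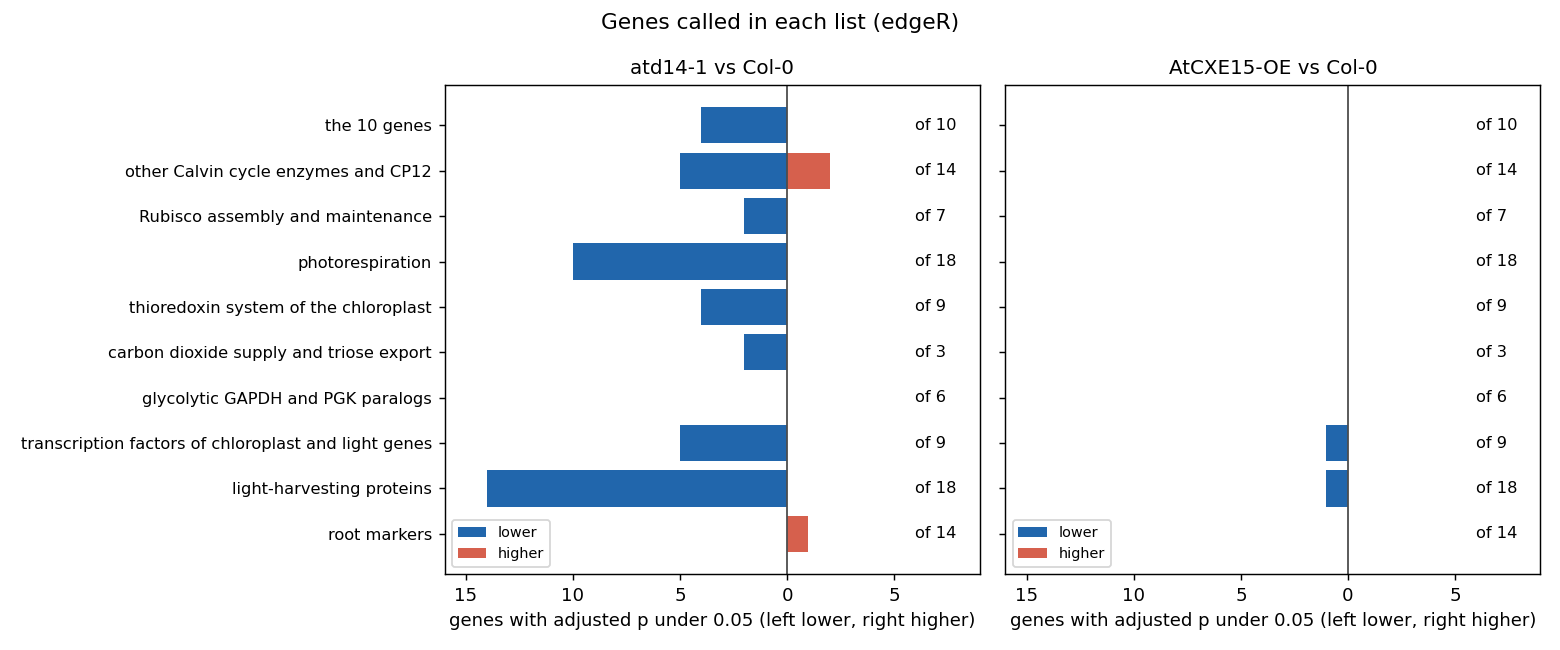
Number of genes with an edgeR adjusted p under 0.05 in each list, lower to the left and higher to the right, for atd14-1 against Col-0 and AtCXE15-OE against Col-0; the number tested stands at the right of each row. In atd14-1, 10 of 18 photorespiration genes and 14 of 18 light-harvesting genes are lower, and in AtCXE15-OE 1 transcription factor and 1 light-harvesting gene are lower.

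Finally, the genes whose levels over the 9 libraries were most like the mean pattern of the 10 were sought among 8703 annotated genes averaging at least 1 CPM. The 6 nearest were PIP1;4, a plasma membrane aquaporin (Pearson r = 0.992), SCO1, a chloroplast elongation factor (0.98), FED A, a ferredoxin (0.971), PSBO1 of photosystem II (0.969), VAR1, a thylakoid protease (0.966), and PSAL of photosystem I (0.966). These values describe points that share library and genotype. The mean pattern was low in all 3 atd14-1 libraries (mean z-score -0.758, -0.948 and -0.585), so genes picked for it are low there by choice. Not all 10 genes share it, and RBCS1B and RBCS2B correlated at -0.897. Of the 6, PSBO1, PSAL, SCO1 and VAR1 were called lower in atd14-1 (edgeR adjusted p = 0.000631, 0.000834, 0.0315 and 0.0379), and FED A and PIP1;4 were not (edgeR adjusted p = 0.0717 and 0.178). These calls are no separate result. PIP1;4 had 238, 237 and 242 CPM in atd14-1, 263, 249 and 254 CPM in AtCXE15-OE, and 254, 255 and 263 CPM in Col-0.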

How the data were processed

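Gene counts were made by the authors and deposited as raw, unnormalized counts, 1 column per library. Per the submitters' processing notes, the tools included HISAT2, SAMtools 0.1.18, Picard and DESeq 1.39.0, with TAIR10 as the build. No source used here names the counter, its strand setting or its treatment of reads with several hits. Per the labels' protocols, polyadenylated RNA was primed with random hexamers by a procedure that does not mark strand.

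Counts of all 9 libraries entered 1 edgeR 4.0.16 quasi-likelihood fit (R 4.3.3; TMM, robust, group-aware low-count filter), with Benjamini-Hochberg adjustment over 21425 genes and a threshold of 0.05. The SE is the absolute log2 fold change over the square root of F, and is approximate. Shares were compared by exact permutation tests. Transcript lengths, coding sequences and motifs came from RefSeq TAIR10.1. The pattern profile is the mean of z-scored log2 CPM with a prior count of 2. The procedure was tested on simulated data for atd14-1 against Col-0, over genes of all levels. A 1.25-fold change was called in 6.67% of the genes given it, and a 1.5-fold change in 48.7%. Of all calls, 6.76% were false. A gene not called may therefore still differ by a small amount. Alternatives included DESeq2 1.42.0, limma-voom (limma 3.58.1), other scalings and filters, and leaving out libraries.

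The members, the gene lists and the rule for named genes (up to 4 genes per list with the smallest adjusted p in atd14-1, and those called in AtCXE15-OE) were chosen with earlier results of these data known. Replicates were checked for duplicates (chi-square of at least 24.3 per degree of freedom) and none was found. The floor was set at 3 counts, or 0.0551 to 0.0795 CPM depending on the library, and covers counting error only. Of the listed genes, 3 were left out because the annotation gave neither the listed symbol nor the role.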

Additional observations from a re-analysis of the deposited data

Results flagged for a closer look

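PG2 (AT1G70370), which is none of the 10 genes and enters only the small subunit sum with edge loci, had 5942 CPM in AtCXE15-OE replicate 2, against 207, 207 and 185 CPM in the Col-0 libraries and 171 to 212 CPM in the other AtCXE15-OE and atd14-1 libraries. It is given here as a signal above the wild type level in a locus outside the gene lists. Its span in the table begins inside RBCS1A, which had 1596 CPM in that library. The cause was not tested.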

How the results depend on the processing

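Depth did not limit these results, since each of the 10 genes had 3581 or more counts in every library. In atd14-1 against Col-0, RCA kept its call under 16 of 17 alternatives and GAPB under 17 of 18, PRK under 10 of 17 and RBCS3B under 9 of 15. The exception for RCA and GAPB was the fit without the 4 libraries, which has fewer samples. Scaling by library size alone gave a PRK log2 fold change of -0.12 (edgeR adjusted p = 0.102), and moved the median of all genes to 0.08. Over all genes tested, replicate numbers did not pair the libraries (correlations of deviations -0.049 to 0.043). GAPA2 did go with replicate number, being lowest in replicate 2 of each group (453 CPM in atd14-1, 512 in AtCXE15-OE and 543 in Col-0). With the replicate block, 2576 genes and 4 members were called in atd14-1, but GAPA2 in place of RBCS3B (edgeR adjusted p = 0.0467 and 0.0662).

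Calls over all genes were 2556 in atd14-1, 487 in AtCXE15-OE and 1486 between the lines. Summing overlapping loci, which tests fewer loci and gives values for GAPA1 and GAPB only among the 10, gave 944, 203 and 588. Without the 4 libraries the counts were 542, 174 and 150, with 0 members in atd14-1 against either group. DESeq2 called 840 genes in AtCXE15-OE, and 5 members between the lines, where edgeR called 2. The cause was not tested. By library size alone, 2241 genes were higher and 968 lower in atd14-1, against 1084 and 1472 with TMM. In AtCXE15-OE the split was 220 and 274, against 163 and 324, and between the lines 1060 and 551, against 604 and 882. Leaving out 1 library at a time gave 1704 to 1917 genes and 2 to 4 members in atd14-1, 287 to 586 genes and 0 members in AtCXE15-OE, and 770 to 2216 genes and 1 to 3 members between the lines.

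Values that were not called changed sign as follows, as log2 fold changes. With 1 library left out, atd14-1 against Col-0 ranged from -0.18 to 0.36 for RBCS1A and from -0.40 to 0.59 for RBCS2B. AtCXE15-OE against Col-0 ranged from -0.55 to 0.0796 for RBCS1A, -0.0285 to 0.0835 for GAPA1, -0.20 to 0.12 for GAPA2, -0.0423 to 0.00758 for GAPB and -0.0554 to 0.00903 for SBPASE. Without the 4 libraries, atd14-1 gave -0.28 for RBCS1A, -0.29 for RBCS2B and -0.0301 for PRP3 against Col-0, and -0.34 for RBCS1A against AtCXE15-OE. AtCXE15-OE then gave 0.0622 for RBCS1A, 0.28 for GAPA2, 0.014 for GAPB and 0.0223 for SBPASE. Scaling by library size gave 0.0131 for GAPB, and the small subunit sum with edge loci gave 0.10.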

Other observations

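PSBY, a photosystem II gene that lies inside the 4.489 Mb span given to RBCS1A, had 1324 and 1252 CPM in AtCXE15-OE replicates 1 and 3 and 1410 CPM in Col-0 replicate 1. The median over the other 8 libraries was 3.01 CPM beside each of these values.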
